A study of Mus musculus with 14 samples.

Results

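Pou5f1, Nanog, Myod1, Neurog2, Spi1, Tal1, Cdx2 and Pdx1 are 8 transcription factor genes that head cell lineages other than fibroblasts, and their H3K4me1 sites were examined in immortalized mouse embryo fibroblasts. The genes were taken by name from 21938 protein-coding genes (55413 genes in all) of the GENCODE M21 annotation of mm10. The rule holds no measured value, but the choice was made with earlier results of these data known. The cells were iMEF-Ash2l fl/fl-Cre-ER cells of the single clone NG3, in which the cells' own Ash2l lacked exon 4 and human FKBP-HA2-ASH2L was expressed from a lentivirus. FKBP-HA2-ASH2L is a tagged protein that the PROTAC compound dTAG-13 ties to an E3 ubiquitin ligase, so that it is degraded. All samples carried these alterations, and the groups were untreated control cells and cells exposed to dTAG-13 for 30 min or for 2, 4, 8 or 16 h. H3K4me1 was measured by ChIP-seq in 2 replicates of each of the 6 conditions, together with 1 input each from control cells and from cells after 16 h, so that the study had 14 libraries. The table used here pools all samples into a single list of 160144 sites with a chromosome, a start and an end. It holds no value for any library, so that neither a time point nor a replicate spread can be given for the 8 genes. The study reported that sites which gained H3K4me1 after loss of ASH2L lay almost only at promoters. A promoter site, in the 8 genes or in the background, may therefore come from treated cells alone. The depth behind the list is unknown, so that no site in a region may also mean too few reads there. The question asked of the list was whether the sites marked these genes, which are tied to other cell types, at the promoter, in the gene or at a distance.

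H3K4me1 is monomethylated lysine 4 of histone H3, a mark placed by KMT2 complexes, of which ASH2L is a core subunit. It is found at enhancers, both in use and poised, and on the nucleosomes beside active promoters. A CpG island is a stretch of DNA rich in the dinucleotide CG, and many promoters of widely expressed and of developmental genes have such an island. A site in the list says that the mark was enriched over background in the pooled data and is not a measure of expression.

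The 8 genes stand for 6 lineages. Pou5f1, which encodes OCT4, and Nanog encode homeodomain proteins that maintain pluripotent stem cells. Myod1 encodes a basic helix-loop-helix (bHLH) protein that can turn fibroblasts into muscle cells, and Neurog2 encodes a bHLH protein that commits progenitors to neurons. Spi1 encodes the ETS factor PU.1 of myeloid and B cells, and Tal1 encodes a bHLH protein needed for all blood lineages. Cdx2 encodes a homeodomain protein of the trophectoderm and the intestine, and Pdx1 encodes a homeodomain protein of the pancreas.

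The stretches just upstream of the transcription start site (TSS) differed in how much CG they held, and 5 of them are printed because they show the combinations of island and site described next. Each sequence is the 250 bases before the most upstream annotated TSS, on the strand of the gene, from GRCm38 (mm10), with CG in capitals. For Neurog2 this is chr3:127632885-127633134 (plus strand), with an island and a site at the promoter. Myod1 (chr7:46376224-46376473, plus strand) and Cdx2 (chr5:147307271-147307520, minus strand) had an island and no site at the promoter. The Myod1 island begins at +212, after the printed bases, and the Cdx2 island at -82, so that only the end of its stretch lies in the island. Nanog (chr6:122707239-122707488, plus strand) and Pou5f1 (chr17:35505768-35506017, plus strand) had neither.
Neurog2: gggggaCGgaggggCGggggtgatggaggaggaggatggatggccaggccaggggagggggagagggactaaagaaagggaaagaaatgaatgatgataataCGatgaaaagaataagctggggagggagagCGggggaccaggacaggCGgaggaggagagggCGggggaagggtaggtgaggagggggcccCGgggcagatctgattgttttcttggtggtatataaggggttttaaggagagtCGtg
Myod1: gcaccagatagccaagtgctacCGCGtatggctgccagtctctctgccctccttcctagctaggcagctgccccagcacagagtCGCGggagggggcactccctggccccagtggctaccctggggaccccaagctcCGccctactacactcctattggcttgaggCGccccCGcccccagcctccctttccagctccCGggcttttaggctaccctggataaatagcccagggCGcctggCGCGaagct
Cdx2: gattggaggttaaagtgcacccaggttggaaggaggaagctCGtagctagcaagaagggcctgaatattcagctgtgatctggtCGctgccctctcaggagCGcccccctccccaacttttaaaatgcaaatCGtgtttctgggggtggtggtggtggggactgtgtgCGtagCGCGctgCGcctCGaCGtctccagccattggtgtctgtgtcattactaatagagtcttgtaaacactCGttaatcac
Nanog: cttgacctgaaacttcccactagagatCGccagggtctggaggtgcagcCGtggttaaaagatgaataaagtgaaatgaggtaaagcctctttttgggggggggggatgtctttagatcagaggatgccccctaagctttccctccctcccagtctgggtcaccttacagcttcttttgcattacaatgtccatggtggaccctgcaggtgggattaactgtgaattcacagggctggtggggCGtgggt
Pou5f1: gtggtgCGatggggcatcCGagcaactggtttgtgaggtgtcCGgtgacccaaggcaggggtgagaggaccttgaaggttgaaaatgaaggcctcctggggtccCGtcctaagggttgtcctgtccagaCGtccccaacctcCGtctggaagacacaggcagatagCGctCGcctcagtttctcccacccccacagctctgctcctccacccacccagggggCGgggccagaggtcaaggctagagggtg

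Myod1 and Cdx2 each held 11 CG in these 250 bases, Pou5f1 held 9, Neurog2 8, Tal1 6, Pdx1 5, and Nanog and Spi1 3 each, against a median of 8 over coding genes. The order of the genes by CG count was thus not the order by H3K4me1, since only Neurog2 of the 5 printed stretches lay inside a site. The stretch of Pou5f1 had a GC content of 62.4% and yet no island, and that of Neurog2, which lies inside an island of 2111 bp, had 58.4%.

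Within 1 kb either side of the most upstream TSS, which is called the promoter here, 2 of the 8 genes had an H3K4me1 site, Neurog2 and Tal1. Over all coding promoters the share was 63.9% (95% Wilson interval 63.2 to 64.5%). Only Neurog2 had a site over the TSS, that is 1 of the 8, against 39.5% of coding TSSs. An overlap of 1 bp was enough to count, and the intervals given here cover the counting of genes alone. The numbers for the 8 genes are a description without a test, because the list is pooled and the genes were chosen for their function.

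A CpG island overlapped the promoter of 5 of the 8 genes, Myod1, Neurog2, Tal1, Cdx2 and Pdx1, which is close to the 53.9% of coding promoters. Of these 5 island promoters 2 had a site, whereas 93.0% of island promoters of coding genes had one. The TSS was covered in 1 of the 5, against 56.7%. The genes without an island, Pou5f1, Nanog and Spi1, had a promoter site in 0 of 3 cases, where the share over coding promoters without an island was 29.8%, and with 0 of 3 TSSs covered the corresponding share was 19.4%. Genes with and without an island are not ranked by their gap, since 0 of 3 is the lowest count possible beside a share of 29.8%.

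**Figure D1:**
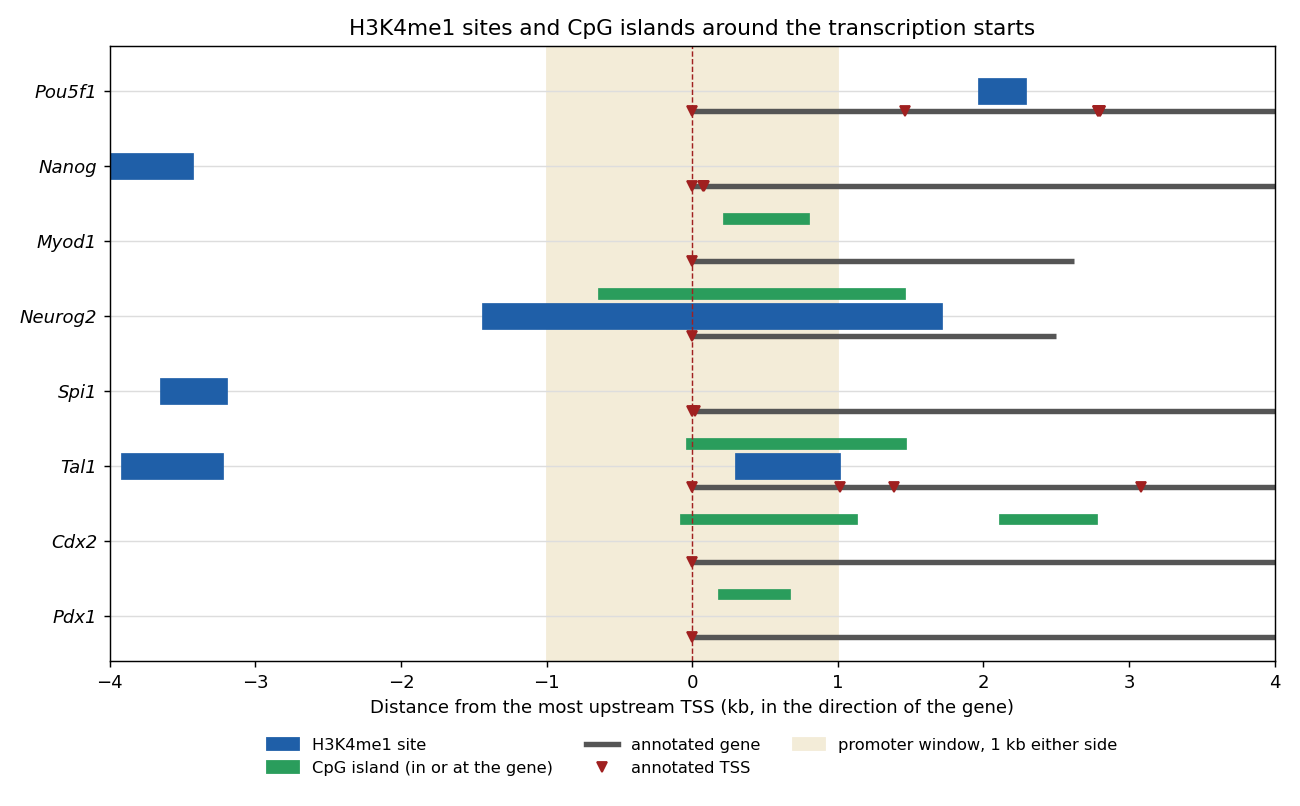
H3K4me1 sites (blue), CpG islands (green), annotated TSSs (red triangles) and genes (grey) of the 8 genes by distance from the most upstream TSS in kb, with the promoter window shaded. The window held a site in Neurog2 and Tal1 alone, while the islands of Myod1, Cdx2 and Pdx1 had none.

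Neurog2 (chr3:127633135-127635631, plus strand, 1 transcript) was the gene with the most H3K4me1 at its start. A single site of 3154 bp reached from -1441 to +1712 relative to the TSS and covered 68.6% of the gene. All 2001 bases of the promoter window lay inside it, which was the case for 6.84% of coding promoters and 10.9% of those with an island. The island, from -648 to +1462, was also covered whole, as were 49.5% of the islands at coding promoters. Of all sites on chromosomes 3.35% were at least as wide.

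Tal1 (chr4:115056426-115071755, plus strand) had a narrower promoter site that left the most upstream TSS free. The site of 726 bp began 292 bp after that TSS, ended at +1017 and lay within the island, of which it covered 48.0% (726 of 1514 bp). Tal1 has 4 annotated transcripts, and the site covered the second TSS, at +1012, but neither the one at +1385 nor the one at +3082. A further site of 1166 bp inside the gene, from +6269 to +7434 and centred on coding sequence, covered a second island of 489 bp whole. Among island promoters of coding genes, 10.7% had their nearest site at least as far from the most upstream TSS.

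Myod1 (chr7:46376474-46379099, plus strand), Cdx2 (chr5:147300805-147307270, minus strand) and Pdx1 (chr5:147269959-147275848, plus strand) had islands without H3K4me1. Each has a single annotated transcript. The Myod1 island spanned 592 bp (+212 to +803), the Cdx2 islands 1216 bp (-82 to +1133) and 671 bp (+2109 to +2779), and the Pdx1 islands 491 bp (+179 to +669) and 224 bp (+4639 to +4862). Sites covered 0 bp of each, whereas 90.6% of islands at coding promoters were touched by a site. The Cdx2 island of 671 bp and the Pdx1 island of 224 bp lie outside the promoter, so that this share does not apply to them. The nearest site lay 19615 bp from the TSS in Myod1, 7853 bp in Cdx2 and 22552 bp in Pdx1. Distances at least as long were found for 3.58% (Myod1), 4.94% (Cdx2) and 3.42% (Pdx1) of the 11830 coding genes with an island, of which the median distance was 0 bp.

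Among the genes without an island, the nearest sites were closer than those of Myod1, Cdx2 and Pdx1, though farther than those of Neurog2 and Tal1. In Pou5f1 (chr17:35506018-35510772, plus strand) a site of 325 bp lay 1964 bp into the gene, in Nanog (chr6:122707489-122714633, plus strand) one of 2371 bp ended 3431 bp before the TSS, and in Spi1 (chr2:91082390-91115756, plus strand) one of 462 bp ended 3192 bp before it. These distances were all below the median of 6913.5 bp for coding genes without an island. Pou5f1 has 6 annotated transcripts, and the 5 that start further downstream, from +1464 to +2803, had this site at 499 to 515 bp, although it covered none of their TSSs. Counted from any annotated TSS, 3 of the 8 genes therefore had a site within 1 kb, Pou5f1 besides Neurog2 and Tal1. Spi1 has 4 transcripts from 2 regions, and the nearest sites were 4574 bp from the TSS at +13706 and 4400 bp from that at +14390, so that no TSS of Spi1 had a site within 1 kb. The 3 TSSs of Nanog lay within 79 bp of each other and had the same nearest site.

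**Figure D2:**
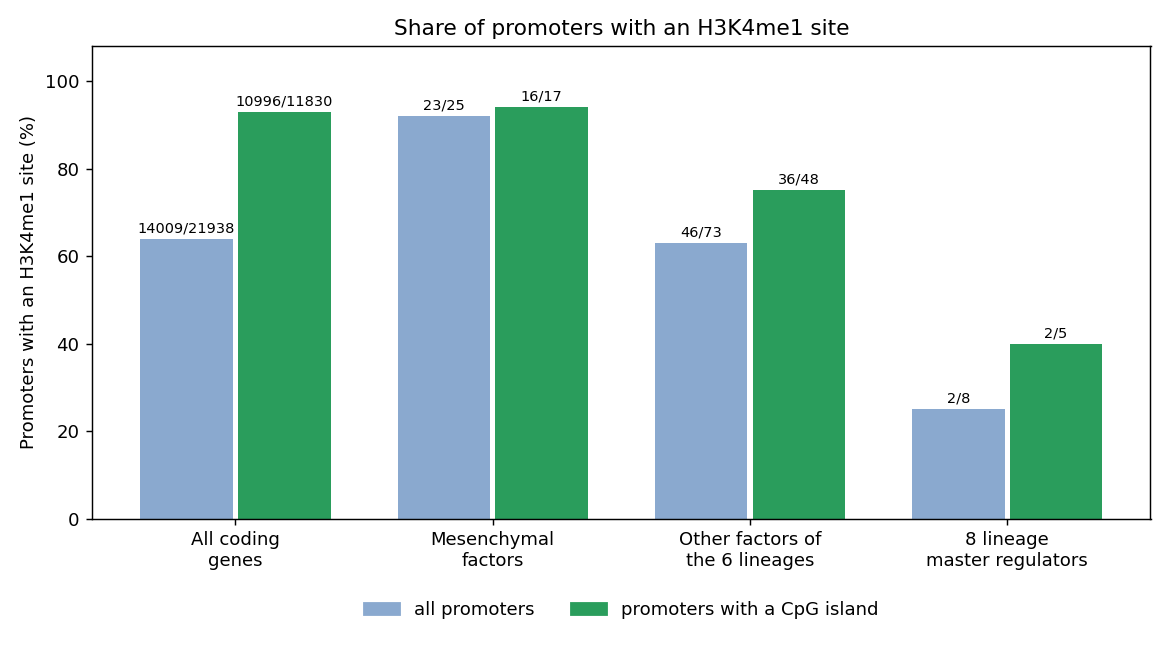
Percentage of promoters with an H3K4me1 site, for all promoters (blue) and for those with a CpG island (green), with the numbers of genes above the bars and no error bars. The 8 genes stand at 2 of 8 and 2 of 5, below the other factors of the same 6 lineages (46 of 73 and 36 of 48) and the mesenchymal factors (23 of 25 and 16 of 17).

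In the bodies of the genes, from the annotated start to the end, 9 sites were found, and 5 of the 8 genes had at least 1, against 72.8% of coding genes. Spi1 had 4, Tal1 2, and Pou5f1, Nanog and Neurog2 1 each, whereas Myod1, Cdx2 and Pdx1 had none. The site of Neurog2 and 1 of the 2 of Tal1 are the promoter sites described above, and without these 7 body sites remained, in Spi1, Tal1, Pou5f1 and Nanog. The 4 sites of Spi1 measured 588, 216, 670 and 489 bp, of which 3 were centred in introns and the last, at the 3' end of the gene, in the untranslated region. That last site covered 293 of the 404 bp of a CpG island (72.5%) at the end of the gene, while the promoter of Spi1 had no island. The body site of Pou5f1 was centred in an intron, and the body site of Nanog (253 bp, from +5793 to +6045) on coding sequence. By base pairs, sites covered 6.83% of the gene in Pou5f1, 3.54% in Nanog, 5.74% in Spi1 and 12.3% in Tal1.

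The loci, that is the genes with 50 kb on either side, held 66 distinct sites, 59 of which reached into a flank. Of the 66, 12 lay at the promoter of another coding gene and 15 within 1 kb of any annotated TSS of another gene. By annotation, 30 were centred between genes, 23 in introns, 6 on coding sequence, 4 in untranslated regions and 3 in exons of transcripts without a coding sequence. The median number of sites per locus was 10, against 11 over coding genes (quartiles 4 and 18). The median covered share was 6.19% of the locus, against 7.86% (quartiles 2.31 and 14.8%).

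**Figure D3:**
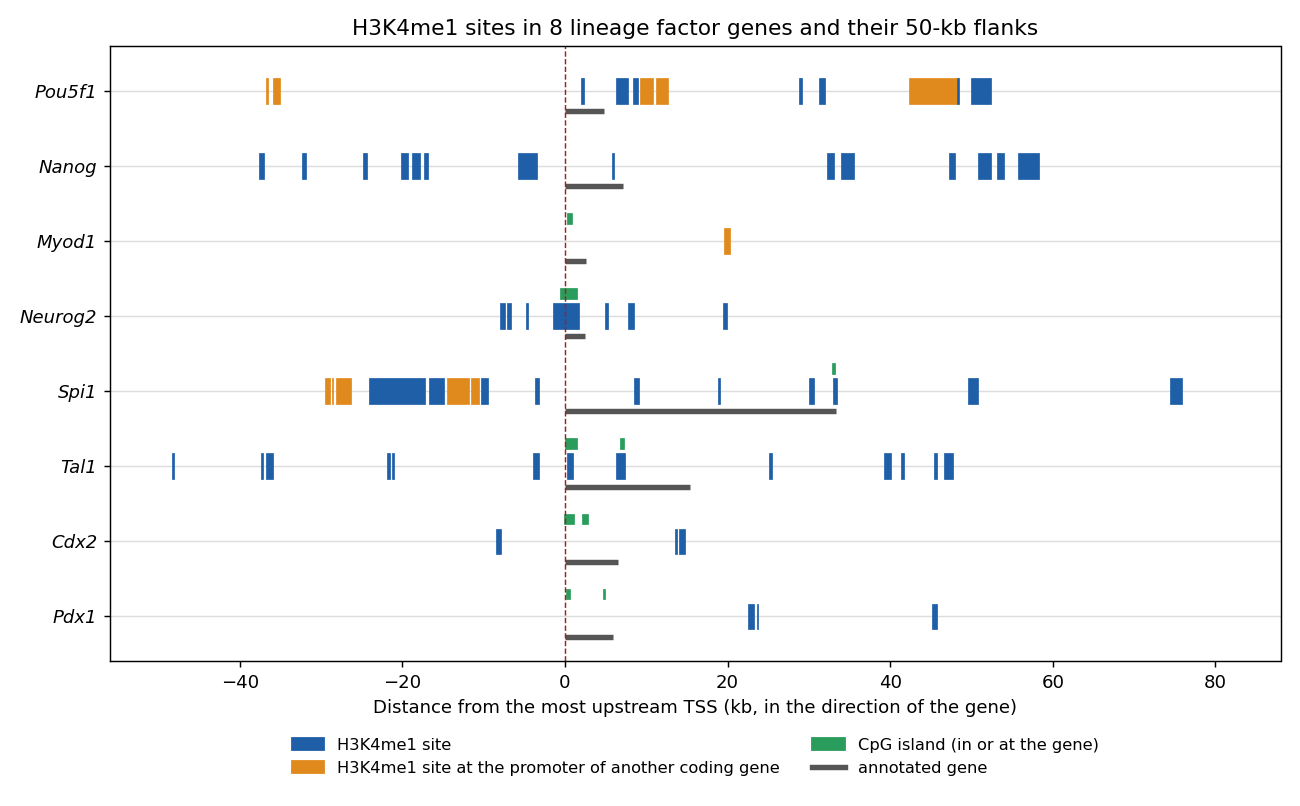
H3K4me1 sites by distance from the most upstream TSS in kb for the 8 genes and their 50-kb flanks. Sites at the promoter of another coding gene are orange, other sites blue, CpG islands in or at the gene green and annotated genes grey, and the site-free stretches around Myod1 and Pdx1 contrast with the 15 sites of Spi1 and the 14 of Nanog.

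The 8 loci fell into 3 ranges of covered share. Spi1 (15.7%, 15 sites), Pou5f1 (15.4%, 13 sites) and Nanog (12.8%, 14 sites) had the highest, and 77.3%, 76.5% and 68.8% of coding genes had the same or a lower share than these. For Tal1 (6.53%, 13 sites) and Neurog2 (5.85%, 7 sites) the corresponding percentages of coding genes were 44.3% and 41.4%. Pdx1 and Cdx2 (1.48% each, 3 sites) and Myod1 (0.635%, 1 site) were lowest, with 21.1%, 21.1% and 16.8% of coding genes at or below them. Differences between neighbours in this order have no replicate spread to be set against. The 3 genes without a promoter island and without a promoter site thus had the most covered loci, and the 3 with an island and no site the least covered. Of the latter, Cdx2 and Pdx1 shared all 3 of their sites. Of the former, Pou5f1 and Spi1 had 6 and 5 sites at promoters of other coding genes.

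What filled these loci differed. Around Pou5f1, 6 of the 13 sites lay at promoters of other coding genes. They included sites of 1580 and 1482 bp at the start region shared by Tcf19 and Cchcr1, and 3 sites of 226 to 403 bp at H2-Q10, a class I histocompatibility gene with near-identical relatives, whose reads may be placed uncertainly. The widest site of the locus, 5845 bp, covered the promoter of Cdsn, a gene of the cornified skin, and 0.575% of all sites were at least as wide. Between the sites at H2-Q10 and the body site, 37045 bp around the TSS of Pou5f1 held none.

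Around Spi1, 5 of the 15 sites lay at other promoters, those of Psmc3, a proteasome subunit, and Slc39a13, a zinc transporter. The widest site of the locus, 6804 bp from -24057 to -17254, was not among these 5 and ran over the facing ends of both genes. It was matched or exceeded in width by 582 sites (0.364%). Nearer to Spi1 a site of 462 bp at -3653 to -3192 lay between genes. The site-free stretch around the most upstream TSS was 11736 bp.

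Around Nanog, no site lay at the promoter of another coding gene, as counted from the most upstream TSS. A downstream site of 1701 bp did lie within 1 kb of an annotated TSS of Slc2a3 that is not its most upstream one. The 7 upstream sites were all centred between genes, and the one nearest to the TSS, from -5801 to -3431, was the widest of them at 2371 bp. The 6 downstream sites (706 to 2595 bp) all overlapped Slc2a3, which encodes a glucose transporter. The TSS of Nanog stood in a gap of 9223 bp.

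Tal1 had no site at another coding promoter either. Of its 6 upstream sites 5 (224 to 904 bp) were centred in introns of Stil, a gene of centriole duplication, and the sixth, of 698 bp, ended at -3226. The 5 downstream sites, from +25095 to +47689, measured 307 to 1048 bp and lay between genes. The widest site of the locus was the one of 1166 bp inside Tal1 itself.

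Neurog2 had its other 6 sites within 20 kb. Those upstream measured 495, 446 and 261 bp, from -7931 to -4561, and those downstream 346, 774 and 516 bp, from +4956 to +19907. All 6 were centred between genes and were narrower than the promoter site. The farthest upstream of them covered 333 bp of a CpG island.

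Myod1 had a single site in its locus, of 652 bp at the promoter of Kcnc1, a potassium channel gene, where 531 bp of it lay in a CpG island. No site was found in the 261368 bp around the TSS (chr7:46134721-46396088), which also hold the TSSs of Abcc8, Ush1c and Otog. Of the 4 coding TSSs in this stretch, 2 have an island. Among coding genes with an island 2.78% stood in a longer site-free stretch.

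Cdx2 and Pdx1 are neighbours on chromosome 5, with 24956 bp between the genes and 37311 bp between their TSSs, and they shared all 3 of their sites, so that they do not count as separate observations. The sites of 738 and 212 bp lay between the genes, 22552 and 23570 bp after the TSS of Pdx1, and the third, of 622 bp, on coding sequence of Urad, 7853 bp before the TSS of Cdx2. The TSS of Pdx1 stood in a site-free stretch of 156546 bp (chr5:147135965-147292510) together with that of Gsx1, a homeobox gene, and both have an island. For Cdx2 the stretch was 21382 bp. Of the coding genes with an island, 3.69% stood in a longer one than Pdx1 and 9.73% in a longer one than Cdx2.

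**Figure D4:**
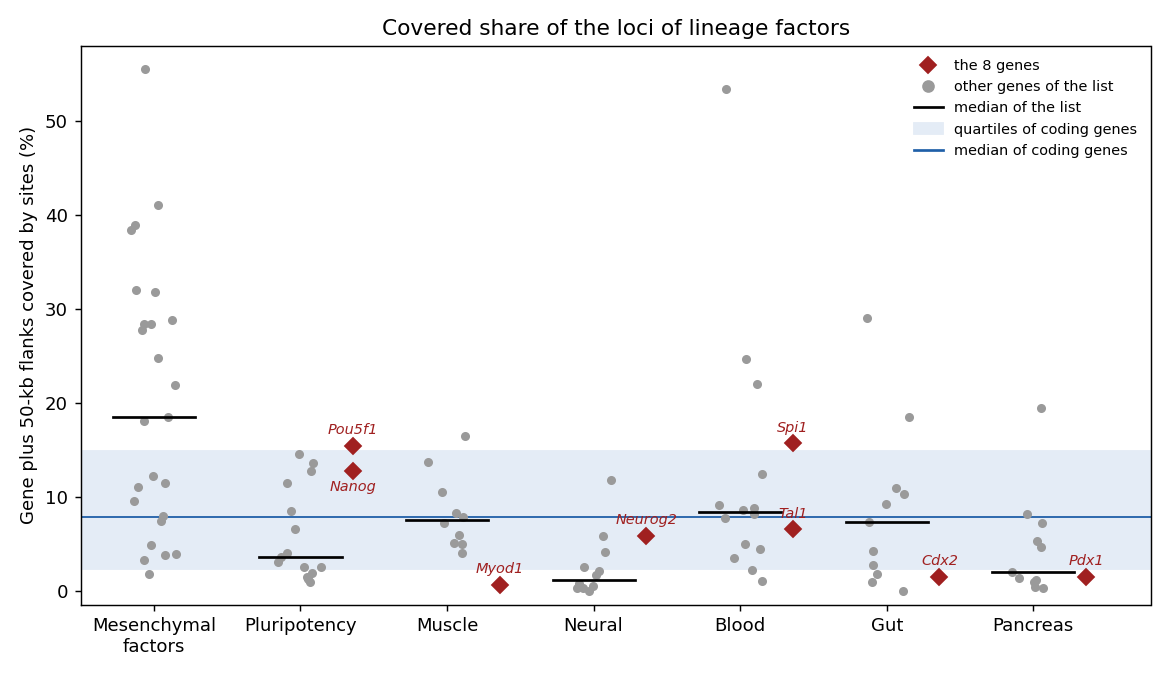
Covered share of the gene plus its 50-kb flanks in percent for the 8 genes (red diamonds), the other factors of their lineages and the mesenchymal factors (grey points), with the median of each list (black line). The blue line and band are the median (7.86%) and quartiles of coding genes, and the 8 genes range from 0.635% (Myod1) to 15.7% (Spi1).

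The other factors of the same 6 lineages give a measure of how far the 8 genes stand for their lineages. Of 73 such genes 46 had a promoter site (63.0%) and 28 a covered TSS (38.4%), and of the 48 with an island 36 had a site. Their median locus share was 4.96%. By lineage, a promoter site was present in 9 of 15 pluripotency factors, 6 of 10 muscle factors, 8 of 12 neural, 10 of 14 blood, 5 of 11 gut and 8 of 11 pancreas factors.

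Within each lineage the genes differed. Among the pluripotency factors, Klf4, Klf2 and Tfcp2l1 had the most covered promoters, with 1656, 1518 and 1255 bp. Among the gut factors these were Gata4 (2001 bp), Foxa1 (912 bp) and Gata6 (725 bp). A promoter site was absent from Myf5, Myog, Mef2c and Pax7 of muscle, from Neurog1, Neurog3, Neurod4 and Sox1 of neurons, from Gata1, Lmo2, Gfi1b and Pax5 of blood and, among the pancreas factors, from Ptf1a and Pax4.

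The gene of the same lineage with the same states of site, TSS and island, and the nearest covered share of the locus, was sought as a description of likeness and is given for 6 of the 8. For Tal1 this was Ikzf1 (826 bp, 5.00%), which encodes the lymphoid zinc finger protein IKAROS. For Cdx2 it was Sox17, a factor of the endoderm, with no site in its locus. Myod1 was nearest to Pax7 (5.95%), the only muscle factor with an island and no site, Spi1 to Gfi1b (7.70%), and Pou5f1 and Nanog both to Nr5a2 (3.95%). The partners of Pou5f1, Nanog and Spi1 thus had a lower covered share than the genes themselves.

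Transcription factors of mesenchymal cells were set beside the 8 genes because the cells are fibroblasts. Of 25 such factors 23 had a promoter site (92.0%) and 17 a covered TSS (68.0%), and the median covered share of the locus was 18.5%. The factors without a site were Tcf21 and Nfic. All 8 lineage genes lay below this median. Of 14 genes that mark fibroblasts, such as collagens, 12 had a promoter site and 10 a covered TSS, with Col3a1 and Lum as the exceptions. Of 17 marker genes of other cell types 9 had a promoter site and 6 a covered TSS. Within the broad classes of neurons, epithelium and endothelium these markers differed. Tubb3, Krt8 and Kdr had a covered TSS, whereas Rbfox3, Krt5 and Cdh5 had no promoter site. The other epithelial and endothelial markers of the list, Epcam, Cdh1, Krt18 and Pecam1, each had a promoter site. The leukocyte markers Ptprc and Cd3e had none.

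The sites of the 8 loci were set beside the whole list for features that the choice of genes did not use. Their median width was 691 bp (212 to 6804 bp), against 603 bp. Their median GC content was 51.4%, against 48.2%, and the median ratio of observed to expected CpG was 0.320, against 0.206. The letters TGANTCA, which AP-1 factors recognise and which read the same on both strands, were found in the central 200 bp of 10 of the 66 sites, or 15.2% (8.44 to 25.7%), against 12.7% of all sites. The letters CANNTG, the E-box that bHLH proteins such as MYOD1, NEUROG2 and TAL1 recognise, were found in 54.5% (42.6 to 66.0%), against 68.2%. For the AP-1 letters the interval included the share of all sites. Among sites over 1 kb from every annotated TSS the E-box share was 54.2% (40.3 to 67.4%), against 69.9%. The intervals treat the 66 sites as independent, although they cluster in 8 loci, and those of Cdx2 and Pdx1 share their sites. They may therefore be too narrow. The lower E-box share was not tested, and GC content and CpG ratio also differed from the whole list. Both patterns were searched on both strands and may share bases, and a match is a description of the sequence.

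The centres of 2 distal sites with the AP-1 letters are printed as examples of the sites that do not lie at a promoter. They are the site 25095 bp after the Tal1 TSS (central bases chr4:115081595-115081794) and the site 4956 bp after the Neurog2 TSS (chr3:127638164-127638363), both on the plus strand of GRCm38, with TGANTCA in capitals.
Tal1 distal site: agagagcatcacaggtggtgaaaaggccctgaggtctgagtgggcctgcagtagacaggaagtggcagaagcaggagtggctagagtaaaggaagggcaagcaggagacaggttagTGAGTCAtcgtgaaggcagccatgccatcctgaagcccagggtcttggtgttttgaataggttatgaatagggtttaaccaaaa
Neurog2 distal site: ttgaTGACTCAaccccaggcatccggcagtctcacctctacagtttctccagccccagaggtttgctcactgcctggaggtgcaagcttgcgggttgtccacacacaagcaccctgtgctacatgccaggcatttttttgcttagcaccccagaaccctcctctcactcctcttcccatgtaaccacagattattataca

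Of the 48 sites of the 8 loci that lay over 1 kb from every annotated TSS, 8 (16.7%) had these letters, against 18156 of all 129931 such sites. The Tal1 site measured 347 bp and the Neurog2 site 346 bp, which is narrower than the median of the list. The 95% interval of the share in the 8 loci, 8.70 to 29.6%, included that of all distal sites, and it too treats clustered sites as independent.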

How the data were processed

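H3K4me1 ChIP-seq was done on 12 libraries, with 2 inputs. In the processing by the authors, Trim Galore removed adapters, BWA placed the reads on mm10, samtools and Picard filtered them and merged replicates, and MACS2 called broad peaks. The versions are not given in the sources used here. The deposited table has 3 columns (chromosome, start and end of each site, in bases) and pools all samples. Of its sites, 36 on scaffolds were left out. Pooling, and any merging of neighbouring peaks, sets the widths and the numbers of sites.

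Starts, counted from 0 in the table, were shifted to count from 1. Overlaps were counted with numpy 2.4.6, pandas 2.3.3, scipy 1.17.1 and numba 0.67.0 under Python 3.11.15 and plotted with matplotlib 3.10.9, on the GRCm38.p6 sequence and GENCODE release M21 (the release M25 of the study was not used here). CpG islands were called on repeat-masked sequence by a score of 17 for each CpG and -1 elsewhere, and kept above 200 bp and above a ratio of 0.6 between observed and expected CpG where GC content reached 50%, which left 16203 islands. The functions were tested on simulated data. Coverage was taken over the gene and its 50 kb flanks, and intervals are 95% Wilson intervals.

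The 8 genes and the gene lists were chosen with earlier results of these data known. Genes named besides the 8 were those whose promoters hold a site in a flank (the 3 nearest for each gene), the list genes without a promoter site (or, beyond 5, the 3 with the most covered promoters) and the nearest list gene of the same state. A few genes that this rule names are not reported here. Cdsn, Slc2a3, Stil, Urad, Abcc8, Ush1c, Otog, Gsx1, Tubb3, Krt8, Kdr, Rbfox3, Krt5, Cdh5, Epcam, Cdh1, Krt18, Pecam1, Ptprc, Cd3e, Pdgfrb, Nfix and the relatives named in the closing section were named after their values were seen. Alternatives concerned the island rule, the flanks, the promoter window, the choice of TSS, the overlap, and the width or merging of sites. No sample enters a comparison, since no value per library is in the table.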

Additional observations from a re-analysis of the deposited data

How the results depend on the processing

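Under 67 alternatives to the choices of processing (35 planned and 32 added after the data were seen), 49 values stayed within 1.5 times a count or within the interval of a share. The number of the 8 genes with a promoter site was 2 or 3 throughout (3 with any annotated TSS, any coding TSS or a window of 3 kb), that of genes with an island 4 or 5, and 2 island promoters had a site in each case. The number with a covered TSS was 2 with any annotated or coding TSS. Body sites numbered 5 when sites of at least 500 bp were kept. Flank sites numbered 37 at that width, 38 when sites within 1 kb were merged, 34 in flanks of 25 kb and 106 in flanks of 100 kb. The share of coding promoters with a site was 67.8% with any annotated TSS, 66.5% with any coding TSS, 61.7% and 68.7% with windows of 500 bp and 3 kb, 59.6% for sites of at least 500 bp and 38.8% over all genes. For island promoters, alternatives applied after seeing the data gave 93.5% with any annotated TSS, 94.7% with stricter islands, 89.3% for sites of at least 500 bp, and 92.3% and 93.6% with the 2 windows. No paired analysis was possible because libraries are not resolved in the pooled list, and for the same reason no replicate could be left out. The unknown depth limits every statement on the absence of a site.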

Other observations

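Close relatives of the 8 genes differed among themselves. Of the neurogenin genes, Neurog2 had a promoter covered over 2001 bp, whereas Neurog1 and Neurog3, both with a CpG island, had no promoter site and their nearest sites at 43681 and 43078 bp. Of the myogenic bHLH genes, Myf6 had 317 bp of its promoter covered, and Myod1, Myf5 and Myog had none, with nearest sites at 19615, 6988 and 1327 bp. Of the caudal-type homeobox genes, Cdx1, Cdx2 and Cdx4 all lacked a promoter site. The locus of Cdx1 was covered over 29.0% and that of Cdx2 over 1.48%. The locus of Cdx1 also holds the wholly covered promoter (2001 bp) of the fibroblast marker Pdgfrb, so that its share does not belong to Cdx1 alone. Lyl1, a close relative of Tal1, had 30 bp of its promoter covered and no island, in a locus covered over 53.4%. This locus overlaps that of the mesenchymal factor Nfix, which had 20 body sites and 55.5% of its locus covered. How much of the share of Lyl1 comes from Nfix was not measured.

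The blood factor Runx1 had a wholly covered promoter (2001 bp) without an island, 37 sites in its body and 21.9% of its locus covered, values above those of Spi1 (0 bp, 4 sites and 15.7%) and Tal1 (709 bp, 2 sites and 6.53%). The body of Ebf1, a factor of B cells, held 55 sites, with 8.18% of its locus covered, against a median of 7.86% over coding genes. These values are from the pooled list and have no replicate spread. The counts of body sites are not scaled to gene length, so that they do not compare the density of sites between these genes.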
